A study of Drosophila melanogaster with 2 samples.

Results

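The genes described here encode the initiation and elongation factors of cytoplasmic translation in Drosophila melanogaster. They were chosen by symbol alone: every protein-coding gene of the Ensembl BDGP6 annotation whose symbol begins with eIF or eEF. This gave 52 genes, 44 for initiation and 8 for elongation factors, among 13945 protein-coding genes on the 6 chromosome arms. What was measured at them is the binding of the protein CG32767, mapped by chromatin immunoprecipitation and sequencing with an antibody against green fluorescent protein (GFP). All material came from whole embryos, 0 to 24 hours old, of the transgenic strain CG32767-GFP, which expresses CG32767 fused to eGFP, so tissues and stages are mixed. A control experiment that the labels link and an untagged strain were not analysed here. There was 1 group of 2 biological replicates, and the labels used here do not give the promoter that drives the tagged gene.

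Initiation factors bring the small ribosomal subunit, the initiator tRNA and the mRNA together. eIF2 delivers the initiator tRNA and is recharged by eIF2B, eIF3 is the large scaffold on the small subunit, and the eIF4 proteins bind the mRNA cap and unwind the leader. Elongation factors then bring in each charged tRNA (eEF1) and move the ribosome along (eEF2). Most of these genes are used by nearly every cell, while some have a further copy used mainly in the male germline.

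A promoter summit is a peak summit within 500 bp of an annotated transcription start site (TSS) of the gene. In the authors' conservative list for both replicates, called the main list here, 10 of the 52 genes had one (19.2%, 95% exact Clopper-Pearson interval 9.63 to 32.5). Among all protein-coding genes the share was 14.1%, inside that interval, so the main list does not set these genes apart. In the authors' longer list 16 had one (30.8%, interval 18.7 to 45.1), against 17.4% of all protein-coding genes. The list of replicate 1 held 10 of the 52 (19.2%) against 12.1%, and that of replicate 2 held 7 (13.5%, interval 5.59 to 25.8) against 10.6%. Taking any of these 4 lists, 17 genes had a promoter summit (32.7%, interval 20.3 to 47.1), against 19.3% of all protein-coding genes. No test of the gene set was made. The intervals treat genes as independent and cover counting error only, since the lists give no read counts.

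**Figure D1:**
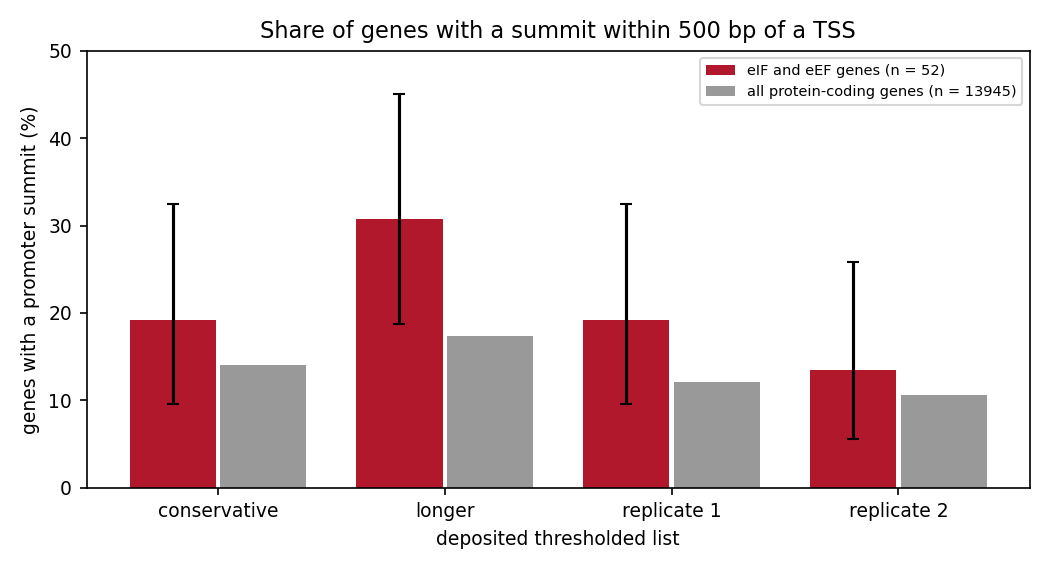
The bars give the percent of genes with a summit within 500 bp of a TSS in each deposited thresholded list, for the 52 eIF and eEF genes and for all 13945 protein-coding genes; error bars are 95% exact intervals. The share of all protein-coding genes lies inside the interval in the conservative and both replicate lists and below it in the longer list, where the bars stand at 30.8% and 17.4%.

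The strongest candidate peak at any of the 52 promoters was that of eIF4EHP, and none of the 4 thresholded lists held it. eIF4EHP encodes a cap-binding protein that does not recruit eIF4G and that represses translation of caudal and hunchback mRNA in the early fly embryo. The authors also deposited ranked lists of all candidates, each with an irreproducible discovery rate (IDR), which is low where a peak holds a high place in both of the peak sets compared. The eIF4EHP candidate (3R, 24109025 to 24109366, dm6) had a signal of 794.7 in the ranked list behind the main one, where it was number 24 of 121998 by signal. Its signal was 466.7 in replicate 1 and 326.3 in replicate 2, values whose scales may differ, so replicates are compared by percentile. These values put the gene at percentile 99.8 in replicate 1 and 99.7 in replicate 2 among all protein-coding genes ranked by their strongest promoter candidate, so both replicates were high. The summit lies between genes, 248 bp upstream of the eIF4EHP TSS and 128 bp upstream of the TSS of CG18428, which is read in the opposite direction. Its IDR was 1e-05, the same as for the eIF6 peak that the main list does hold. In all, 3658 candidates had an IDR of at most 0.01 and 125 of them are not in the main list, 75 of these on 3R, and 1 was stronger than that of eIF4EHP. The sources used here do not give the step that removed them. Counting candidates by IDR alone, 11 of the 52 genes (21.2%) had one at a promoter, against 14.5% of protein-coding genes, and eIF4EHP was the gene gained. The sequence around its summit, read from the RefSeq dm6 assembly on the strand of eIF4EHP (chr3R:24109158-24109258, minus strand), is shown because this site carried the highest signal of the group. Capitals mark runs of 6 or more A or T.
eIF4EHP: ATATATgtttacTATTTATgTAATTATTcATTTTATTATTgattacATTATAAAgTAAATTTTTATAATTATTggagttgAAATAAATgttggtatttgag
Of these 101 bases 84.2% are A or T, in 7 such runs, the longest of 18 bases. The median over the 1678 main-list summit windows at protein-coding promoters, also of 101 bases, was 64.4%. Those windows ranged from 28.7% to 89.1%, so the eIF4EHP window is inside their range.

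The main-list windows of the group were less rich in A and T. The 12 main-list promoter summits of the group, which belong to 10 genes, had between 42.6% and 74.3% A or T within 50 bp, with a median of 58.9%. Windows 500 bp to either side of them had a median of 52.0%. Across all protein-coding promoter summits the medians were 64.4% at the summit and 55.4% in such flanks.

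The DNA replication-related element (DRE), TATCGATA, is a known promoter element of growth and replication genes in flies and reads the same on both strands. It was present within 50 bp of 3 of the 12 member summits, those at eEF1gamma, eIF1 and eIF3a, and in 2.86% of the 1678 windows. The 12 windows are too few to set against that share. Those windows are shown on the strand of the named gene, with the element in capitals and cut at the base before a TSS where one falls inside. They lie at chr3R:29220073-29220171 (plus strand), chr3L:3223018-3223118 (plus strand) and chr3R:4433907-4433964 (minus strand), in RefSeq dm6.
eEF1gamma: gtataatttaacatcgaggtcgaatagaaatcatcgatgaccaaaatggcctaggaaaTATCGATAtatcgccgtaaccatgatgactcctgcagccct
eIF1: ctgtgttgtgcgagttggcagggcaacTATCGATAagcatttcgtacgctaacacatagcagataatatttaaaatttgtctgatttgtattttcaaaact
eIF3a: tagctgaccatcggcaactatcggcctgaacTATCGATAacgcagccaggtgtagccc
The element's centre lay 12 bp from the summit at eEF1gamma, 20 bp at eIF1 and 28 bp at eIF3a. The element also occurred at promoters of the group that had no peak. Between 250 bp upstream and 50 bp downstream of a TSS it occurred in 15 of the 52 genes (28.8%) and in 10.2% of all protein-coding genes. Of the 10 genes with a main-list promoter summit 5 had it there (eEF1gamma, eIF2gamma, eIF3a, eIF3c and eIF6). eIF1 is not among them, because the element at its summit lies more than 250 bp upstream of the eIF1 TSS. That summit is nearer to the TSS of RpL28. Of the 35 genes with no promoter summit in any thresholded list 9 had it (25.7%). Of all 1965 protein-coding genes with a main-list promoter summit, 16.2% had it.

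The other elements were each in at most 1 member window, too few windows to set against the general shares. The E-box CACGTG, bound by Myc, was in 0 of the 12 windows and in 1.19% of the 1678. GAGAG, the core of the GAGA factor site, was in 1 (eIF3c) against 11.2%, and TATAAA in 1 (eIF6) against 19.2%. The core promoter element known as Ohler motif 1, searched as GGTCACAC, was in 1 (eEF1alpha1) against 1.31%, and an A tract of AAAAAAA in 1 (eIF3c) against 11.8%. Each was searched on both strands, and the A tract can overlap TATAAA. Genes of the translation machinery in flies often start at a polypyrimidine initiator, whose core CTTT was looked for on the sense strand with its first base within 5 bp of a TSS. It was found at 7 of the 52 genes (13.5%), namely eEF1alpha1, eEF2, eEF5, eIF3f1, eIF3i, eIF3m and eIF4A, and at 8.07% of all protein-coding genes. Of the 10 genes with a main-list summit 2 had it. Of the 35 with no promoter summit in any thresholded list 4 had it. Its share among all protein-coding genes with a main-list summit is not given.

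In order of role, the initiation factors that act at the start codon come first. eIF1, which keeps the scanning ribosome from starting at the wrong codon, had a main-list signal of 98.8 (3L, 3222873 to 3223262). Its promoter candidates were 69.5 in replicate 1 and 31.4 in replicate 2, and the first alone was in its replicate's thresholded list. The summit lies between genes, 273 bp upstream of eIF1 and nearer to the ribosomal protein gene RpL28, 108 bp upstream of that TSS. eIF1A, its partner in scanning, was in the longer list alone, at 51.3 (3R, 18274367 to 18274756), with 27.8 and 25 in replicates 1 and 2. That summit was 103 bp upstream of eIF1A and 116 bp upstream of Vps39.

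Of the 3 subunits of eIF2, which carries the initiator tRNA, eIF2gamma had main-list summits and eIF2alpha and eIF2beta had none in any thresholded list. The stronger eIF2gamma summit, 84.1 (3R, 15262691 to 15263080), lies 51 bp inside a TSS in its 5' untranslated region, and the weaker, 21.2 (3R, 15262918 to 15263307), in an intron 176 bp upstream of that TSS. The weaker is also 439 bp upstream of Set, a histone chaperone gene. Candidates there were 34.0 in replicate 1 and 47.8 in replicate 2, and neither replicate's list held them. eIF2gamma shares its outer TSS with Su(var)3-9, the histone H3 methyltransferase gene of heterochromatin, whose intron spans both summits. With that outer TSS alone the gene's signal would be 21.2. The candidates at eIF2alpha and eIF2beta were weaker, 25.8 and 43.4 in the series ranked list. The 5 genes of eIF2B, the exchange factor of eIF2, had no summit in any thresholded list. Each had a candidate, from 30.2 at eIF2Bbeta to 59.7 at eIF2Bepsilon, the catalytic subunit. eIF2Bepsilon had 27.4 in replicate 1 and 30.1 in replicate 2, while eIF2Bbeta had none in either replicate.

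Among the 16 eIF3 genes, 3 had a main-list promoter summit and 5 one in the longer list. eIF3a and eIF3c, core subunits that hold the complex together, had 105.5 (3R, 4433762 to 4434151) and 96.4 (2R, 17665439 to 17665828). eIF3a had 54.5 in replicate 1 and 52.7 in replicate 2, and eIF3c 61.8 and 41.6, at percentiles 90 and 91.5 for eIF3a and 91.5 and 87.1 for eIF3c. The eIF3a summit lies between genes, 62 bp upstream of eIF3a and 8 bp upstream of the divergent CG1074. That of eIF3c also lies between genes, 44 bp upstream, with no other TSS within 500 bp. eIF3h, an outer subunit, had 110.7 (2L, 5052272 to 5052661), with 67.1 and 38.1 in replicates 1 and 2. Its summit is in an intron, 313 bp downstream of its inner TSS and 376 bp upstream of senju. The outermost TSS of eIF3h is 627 bp away, so with that TSS alone it had no promoter summit.

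The longer list added eIF3d1, whose human counterpart can contact the cap, at 62.7 (3R, 23679808 to 23680197, 36 bp upstream), and eIF3j, a loosely bound subunit, at 63.7 (2R, 9969241 to 9969630, in an intron 372 bp downstream). eIF3d1 had 27.3 in replicate 1 and 32.3 in replicate 2, and eIF3j 19.8 and 51.3, and eIF3j was at percentile 65.2 in replicate 1 and 91.1 in replicate 2, whose list alone held it. Of the other 11 eIF3 genes, 4 had no promoter candidate in the series ranked list, namely eIF3d2, eIF3f2, eIF3g2 and eIF3i. The rest were eIF3b, eIF3e, eIF3f1, eIF3g1, eIF3k, eIF3l and eIF3m, and ranged from 6.1 at eIF3f1 to 58.8 at eIF3e. The lists differed for eIF3f1, which was at percentile 26.1 in the series ranked list. It had 14.3 in replicate 1 (percentile 51.9) and 24.8 in replicate 2 (percentile 70.8). eIF3e had 32.2 in replicate 1 and 27.1 in replicate 2, and the core subunit eIF3b had 41.0 and 21.9.

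**Figure D2:**
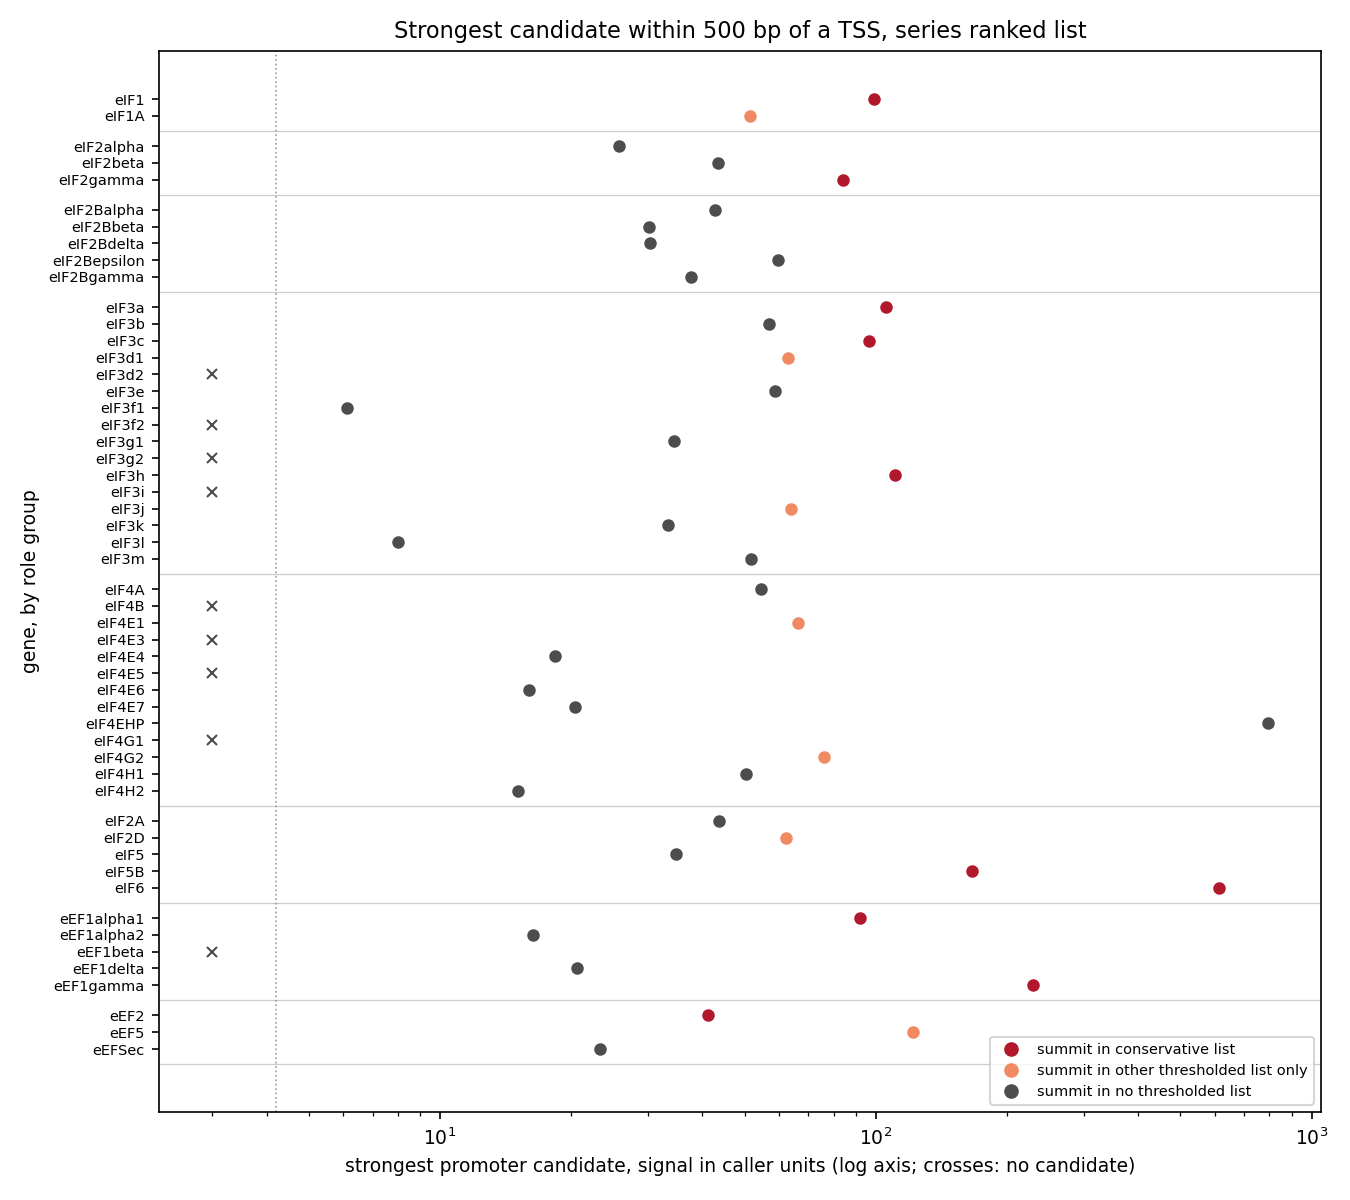
Each point is the signal of the strongest candidate within 500 bp of a TSS of 1 gene in the series ranked list, in the peak caller's units on a log axis, by role group; crosses at the left are genes with no candidate. eIF4EHP (794.7) and eIF6 (612.0) stand far to the right, and eIF4EHP is drawn grey because no thresholded list holds it; eEF2 is drawn at 41.1, its strongest candidate, while its main-list summit is a weaker one of 31.9.

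None of the 13 genes of the eIF4 family had a main-list promoter summit, and 2 had one in the longer list and in replicate 2. By IDR alone 1 of the 13 had a promoter candidate, the eIF4EHP one of 794.7 described above, which is the strongest of the group. eIF4E1 encodes the main cap-binding protein and had 66.4 in the longer list (3L, 9401949 to 9402338, 7 bp upstream of a TSS, in its 5' untranslated region), with 30.4 in replicate 1 and 39.1 in replicate 2. eIF4G2, a copy of the eIF4G scaffold that fly spermatogenesis needs, had 76.2 (3R, 23818895 to 23819284), with 21.2 and 51.8, or percentiles 67.7 and 91.3, in replicates 1 and 2. The eIF4G2 summit is 147 bp downstream of a TSS that it shares with CG33111, within an intron of CG34355. eIF4A, the helicase, had a candidate of 54.5 with 41.6 in replicate 1 and 22.4 in replicate 2. eIF4B, eIF4E3, eIF4E5 and eIF4G1 had none in the series ranked list. Of these, only eIF4E3 had a candidate elsewhere, 18.5 in replicate 1 and 22.0 in the ranked list behind the longer list. eIF4G1, the general scaffold, is the only one of the 52 on chromosome 4, and neither replicate had a promoter candidate there.

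Of the remaining initiation factors, eIF6 and eIF5B had a promoter summit in every thresholded list. eIF6, which keeps the large ribosomal subunit from joining too early, had the strongest main-list peak of the group, 612.0 (2R, 23850263 to 23850536), number 45 of the 3533 peaks. Its signal was 369.3 in replicate 1 and 237.4 in replicate 2. The summit is 101 bp upstream of eIF6, in an intron of ytr and in the non-coding RNA gene asRNA:CR45928, 72 bp past the TSS of the latter. eIF5B, the GTPase that joins the subunits, had 166.3 (3L, 3460566 to 3460955). It reached 102.2 in replicate 1 and 73.7 in replicate 2. Its summit is 158 bp upstream of the nearest eIF5B TSS and within the 5' untranslated region of a longer transcript. eIF2D, an alternative carrier of tRNA to the ribosome, was in the longer list at 62.3 (3R, 29151656 to 29152045, 57 bp upstream), with 42.4 and 23.0 in the replicates and a peak in the list of replicate 1. eIF5, which prompts GTP hydrolysis by eIF2, and eIF2A had no promoter summit in these lists, with candidates of 34.7 and 43.7 in the series ranked list and, in the replicates, in replicate 2 alone (20.0 and 40.8).

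Main-list promoter summits were found at 3 of the 8 elongation factor genes (37.5%, interval 8.52 to 75.5) and at 7 of the 44 initiation factor genes (15.9%, interval 6.64 to 30.1). The 14.1% of all protein-coding genes lies inside both intervals. eEF1gamma, a structural subunit of the exchange factor of eEF1A, had 229.2 (3R, 29219928 to 29220317), with 104.2 in replicate 1 (percentile 95.9) and 113.4 in replicate 2 (percentile 97.8). Every thresholded list held a promoter peak of it. The summit lies between genes, 49 bp upstream, and the nearest TSS of another gene is 2928 bp from a TSS of eEF1gamma. eEF1alpha1, the factor that brings charged tRNA to the ribosome, had 2 main-list summits in its introns, 94 and 441 bp upstream of internal TSSs. The first had 92.1 (2R, 11891833 to 11892222) and the other, 22 bp upstream of snoRNA:Me28S-A1322, had 82.8 (2R, 11892906 to 11893295). The strongest eEF1alpha1 candidate was 58.0 in replicate 1 and 32.5 in replicate 2, and the list of replicate 1 alone held it. With the outermost TSS alone eEF1alpha1 had no promoter summit. The other eEF1 genes had no summit in a thresholded list. In the series ranked list eEF1delta had 20.6 and eEF1alpha2 16.3, and eEF1beta had a candidate in replicate 2 alone (15.0).

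eEF2, the translocation factor, had a weak main-list summit of 31.9 (2L, 21681499 to 21681888) in an intron, 422 bp downstream. None of the other thresholded lists held a promoter summit of eEF2. Its strongest candidates were 39.5 in replicate 1 and 31.4 in replicate 2. For eEF5, the factor named eIF5A in older work, the opposite held. It had 58.7 in replicate 1 and 69.2 in replicate 2, in the thresholded list of each, and 121.4 in the longer list (2R, 24057744 to 24058133, in an intron 86 bp downstream), but the main list had none. The IDR of the same eEF5 candidate between the replicates was 0.691. The thresholded list of replicate 1 had 2 summits there, 26 and 184 bp downstream, and that of replicate 2 had 1, at 96 bp, while both ranked lists had 2. eEFSec, the factor for selenocysteine tRNA, had a candidate of 23.3 and no thresholded summit.

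**Figure D3:**
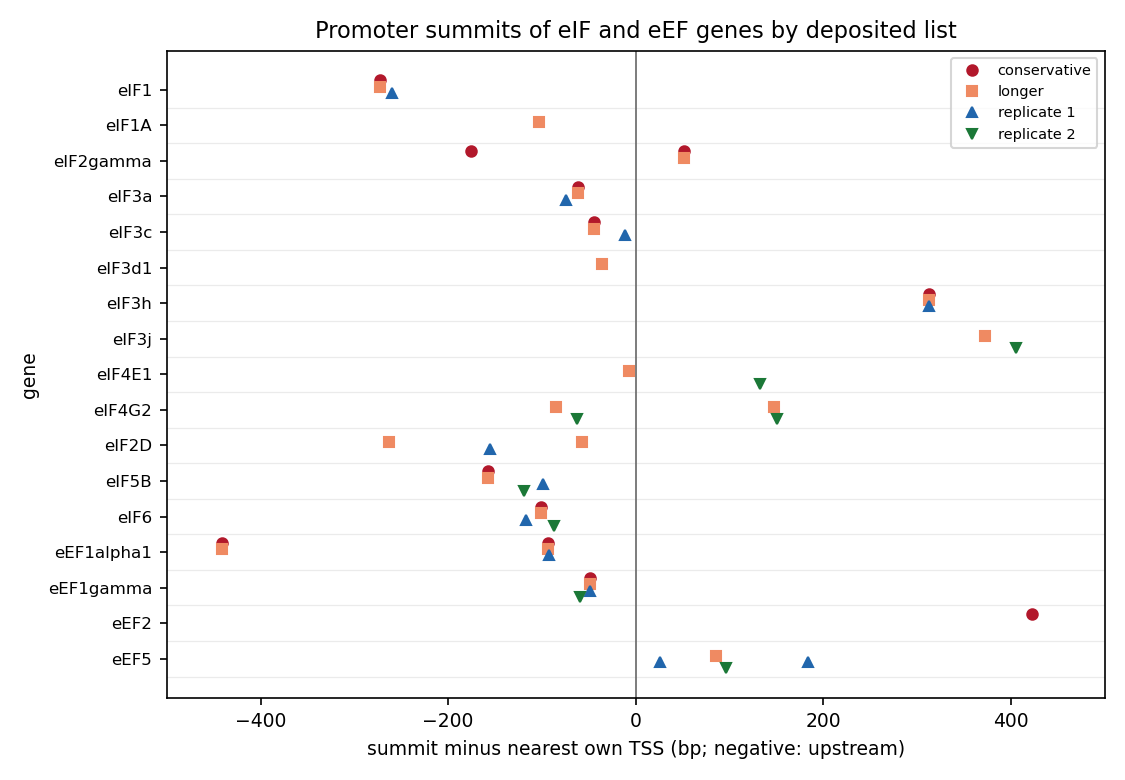
Each symbol is a summit within 500 bp of the nearest TSS of the gene named at the left, with its distance in bp (negative is upstream), for the 17 genes with a promoter summit in any of the 4 thresholded lists. Most symbols lie left of 0, and eIF3h, eIF3j, eEF2 and eEF5 have theirs to the right, inside the gene.

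For the summit nearest to a TSS, 7 of the 10 main-list genes (70.0%) had it upstream, with a median of -55.5 bp, against 78.8% of the 1965 protein-coding genes with a main-list promoter summit. In the list of replicate 1 it was 8 of 10, against 83.6% of protein-coding genes, and in that of replicate 2 it was 4 of 7, against 73.4%. In the longer list it was 12 of 16 (75.0%, interval 47.6 to 92.7), against 76.4%. The share of the members was the lower one in each list, but every interval held the general share. The intervals were 34.8 to 93.3 in the main list, 44.4 to 97.5 in replicate 1 and 18.4 to 90.1 in replicate 2. The lists have genes in common, so they are not independent, and these shares do not set the members apart. Just inside were the weaker eEF1alpha1 summit at 441 bp and that of eEF2 at 422 bp. Just outside were eIF3b at 519 bp (signal 71.9), eIF5 at 642 bp (92.2) and eIF2Bbeta at 673 bp. The peak near eIF2Bbeta has a signal of 1188, and the gene nearest to eIF2Bbeta is the sugar transporter gene Ugalt.

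A TSS of another gene was within 1000 bp for 29 of the 52 (55.8%, interval 41.3 to 69.5), against 48.2% of protein-coding genes, and 3 genes (eIF2gamma, eIF4G2 and eIF5) shared a TSS outright. Of the 10 main-list genes, 4 had their strongest summit also within 500 bp of another gene's TSS (40.0%), against 53.1% of protein-coding genes with a main-list promoter summit. With genes that have another TSS within 1000 bp left out, 23 remained, and 2 of them (8.7%), eEF1gamma and eEF2, had a main-list summit, against 8.15% of the 7219 protein-coding genes left.

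The replicates gave similar orders. Across the 37 genes with a promoter candidate in both replicates, the Spearman correlation of their percentiles was 0.75, and over 7449 protein-coding genes it was 0.68. These points share their libraries and are not independent, so no p-value is given. In the thresholded lists 4 genes were in both replicates (eEF1gamma, eEF5, eIF5B and eIF6), 6 in that of replicate 1 alone and 3 in that of replicate 2 alone. The 4 shared genes are thus 4 of 10 in replicate 1 and 4 of 7 in replicate 2. Among protein-coding genes 63.3% of those in replicate 1 were also in replicate 2, and 72.2% the other way. Of the 10 main-list genes, 7 had the higher percentile in replicate 1 and 3 (eEF1gamma, eIF2gamma and eIF3a) in replicate 2. The main-list genes in neither replicate's list were eIF2gamma and eEF2.

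**Figure D4:**
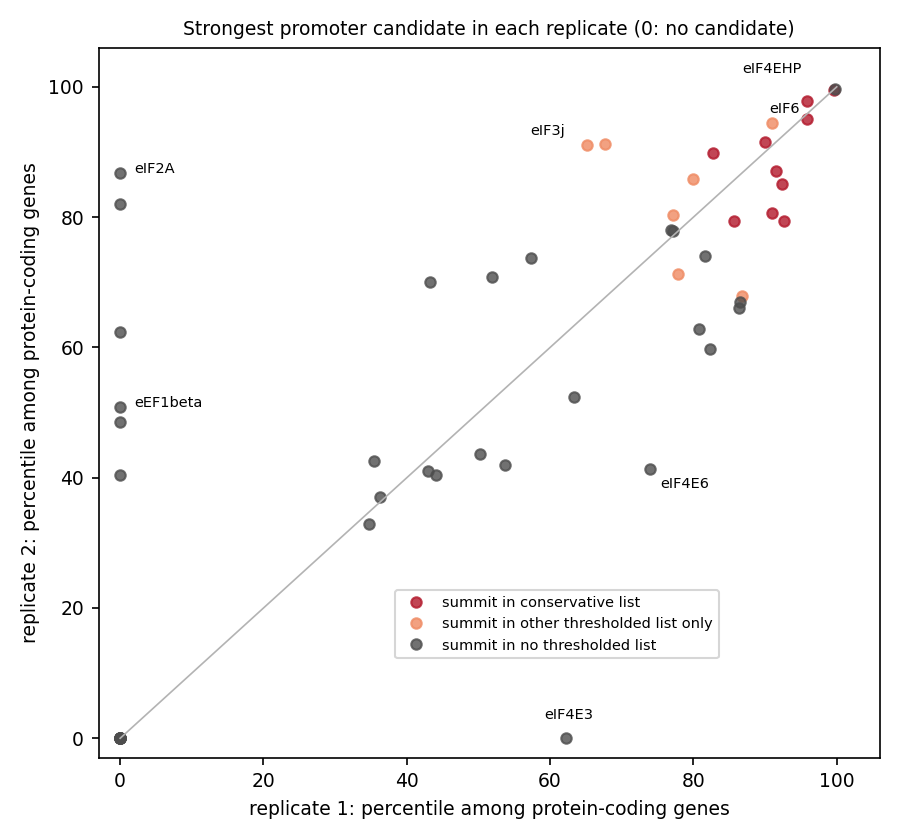
The axes give each gene's percentile, by the strongest promoter candidate in the ranked list of replicate 1 and of replicate 2, among all 13945 protein-coding genes, with 0 for no candidate. Most of the 52 points follow the diagonal with eIF4EHP and eIF6 at the upper right, and 6 lie on the left edge with a candidate in replicate 2 alone.

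Below the thresholds, most of the group had some candidate. In the series ranked list 43 of the 52 (82.7%) had one at a promoter, against 75.4% of protein-coding genes, so its presence alone says little. The median signal was 51.3 over these 43 and 34.9 over the 10518 protein-coding genes with one. By strongest promoter candidate the 52 genes had a median percentile of 69.9 among all protein-coding genes, 64.2 in replicate 1 and 67.4 in replicate 2, and 33 were above percentile 50. The 8 above percentile 90 were eIF4EHP, eIF6, eEF1gamma, eIF5B, eEF5, eIF3h, eIF3a and eIF1. No ranked list had a promoter candidate for eIF3i, eIF4B, eIF4E5 or eIF4G1.

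Where a factor has several copies, the copy numbered 1 had the highest promoter signal in 6 of 7 groups, all in the series ranked list. For eEF1alpha the values were 92.1 and 16.3 in copies 1 and 2, and for eIF4H 50.3 and 15.1. eIF3d1, eIF3f1 and eIF3g1 had 62.7, 6.1 and 34.5, and their partners eIF3d2, eIF3f2 and eIF3g2 had no candidate. eIF4E1 had 66.4, while eIF4E7, eIF4E4 and eIF4E6 had 20.4, 18.4 and 16.0, and eIF4E3 and eIF4E5 had no candidate. The exception was eIF4G, with no candidate at eIF4G1 and 76.2 at eIF4G2. The groups hold the copies told apart by a number and were put together after the values were seen. eIF4EHP, a relative of eIF4E with no number, is not among them, and its 794.7 is above the 66.4 of eIF4E1.

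Genes that work with these factors were taken from 8 lists, of which 75 of 85 symbols were matched. Of the 75, 15 (20.0%, interval 11.6 to 30.8) had a main-list promoter summit, against 14.1% of protein-coding genes. Genes for cap and poly(A) tail regulation had 4 of 9. NAT1, an eIF4G relative, had 154.2. Thor, the fly 4E-BP that sequesters eIF4E, had 114.4. larp had 84.0 in the main list but a candidate of 639.6 in the ranked list, with an IDR of 1e-05. For larp the replicates had 369.7 and 266.9. Cytoplasmic aminoacyl-tRNA synthetases had 4 of 20, led by GluProRS (216.0), IleRS (195.4) and SerRS (177.4), each with its summit also near another gene's TSS, that of AP-1sigma, Hem and CG17260. Genes that modify eIF5A and eEF2 had 2 of 6, Dph1 (186.8) and Dph2 (144.1) of the diphthamide pathway that acts on eEF2, both in the lists of either replicate. Termination and recycling had 1 of 5 (pelo, 108.1), genes for eIF2 kinases and initiation at the ribosome 1 of 5 (Gcn2, 100.7), and mitochondrial translation factors 1 of 8 (mRF1, 83.8). Mitochondrial synthetases had 2 of 15, ProRS-m (110.3) and ArgRS-m (86.5), and TOR pathway genes 0 of 7, where Tor itself was not matched and 1 of the 7 had a summit in the longer list.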

How the data were processed

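Chromatin immunoprecipitation peaks of 2 replicate libraries were used. Per the labels, chromatin was sonicated and the assembly was dm6. The sources used here name no aligner or peak caller. The authors deposited 4 thresholded and 4 ranked peak lists, for each replicate and for both combined. The signal of a peak is given as deposited. Its scale may differ between lists, so replicates were compared by percentile within each ranked list. The deposited score is a scaled IDR, and IDR values were computed from the −log10 column that the authors deposited in the ranked lists. The ranked list behind the main one was recognised by the first of its compared peak sets, of which 68.0% occur in the ranked list of replicate 1. The second set was not checked against replicate 2. The depth of each library is unknown.

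Summits (start plus offset) were assigned to every gene other than transposable elements with a TSS within 500 bp, from Ensembl release 115 (BDGP6.54). Chromosome lengths of the RefSeq assembly held every peak. The assignment found 200 of 200 planted summits. Python 3.11.15, pandas 2.3.3, numpy 2.4.6, scipy 1.17.1 and matplotlib 3.10.9 were used. All genes with a promoter summit in any thresholded list are named, and of the other lists the 3 strongest members. The members were picked by symbol alone. That rule, the lists, the motifs and the comparisons were set with earlier results of these data known. With 1 group and no control library among the data analysed here, no test between groups was possible, and replicates were compared by their values.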

Additional observations from a re-analysis of the deposited data

How the results depend on the processing

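The number of eIF and eEF genes with a promoter summit was 10 (19.2%, against 14.1% of all protein-coding genes). It was 16 with the longer list (30.8% against 17.4%) and 5 with only the stronger 50% of main-list peaks (9.62% against 8.67%). With genes left out that have another TSS within 1000 bp, it was 2 of the 23 that remained (8.7% against 8.15%). It was 17 when any summit in the gene or up to 2000 bp upstream counted, an alternative chosen after seeing the data. No share of all protein-coding genes is given for that rule, so the 17 cannot be set against one. It moved less at 250 bp (7), at 1000 bp (13), with the outermost TSS (8), any base of the peak (12), candidates by IDR (11, also chosen after seeing the data), without replicate 1 (7) and without replicate 2 (10). Genes with a shared summit numbered 2 at 250 bp, not 4. Genes with an upstream summit were 12 of 16 in the longer list (75.0% against 76.4%), beside 7 of 10 in the main list (70.0% against 78.8%). They were 4 of 7 without replicate 1 (57.1% against 73.4%) and 8 of 10 without replicate 2 (80.0% against 83.6%). The median percentile, 69.9, was 64.7 when ranked by IDR, 67.6 at 250 bp and between 64.2 and 67.4 when a replicate was left out. Of the 12 member windows, 3 held any of the 6 motifs with 25 bp to either side, not 6. No share over the 1678 windows is given for the 6 motifs together, so neither count can be set against one. Other translation genes with a promoter summit numbered 9 of 75 without replicate 1 and 12 of 75 without replicate 2, not 15. The share of all protein-coding genes was then 10.6% and 12.1%, not 14.1%. With the outermost TSS alone the signal of eIF2gamma was 21.2, not 84.1. Counts that rest on a different list or fewer genes change by construction, and otherwise the cause was not tested. No paired analysis was possible because there is 1 group. The unknown depth limits what the lack of a peak says.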
